A study of Mus musculus with 6 samples.

Results

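The C/EBP family of transcription factors, the ETS factor PU.1 (gene Spi1) and the zinc finger factor Klf4 were followed in early blood progenitors with and without a GFP signal from the Hes1 locus. The 7 genes were Cebpa, Cebpb, Cebpd, Cebpe, Cebpg, Spi1 and Klf4, and every probe set that the array's annotation pairs with exactly 1 of these symbols was taken. This gave 11 probe sets for 6 of the 7 genes, out of 34958 probe sets and 18194 genes tested. No probe set carried the symbol Cebpe, which was therefore not analysed here.

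Lineage-negative, cKit-positive, Sca1-positive bone marrow cells, the fraction that holds blood stem cells and multipotent progenitors, came from 6-week-old mice of the genotype Hes1 GFP/WT. GFP-positive cells (3 arrays) were compared with GFP-negative cells (3 arrays), and cells of both groups carry 1 GFP allele and 1 wild-type allele of Hes1, a Notch target. In each group replicate 1 was female and replicates 2 and 3 were male. The labels give neither the GFP gate nor whether the arrays stand for different animals, and every p-value below therefore reflects sample-to-sample spread alone, part of which may be technical.

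C/EBP proteins are basic leucine zipper factors that bind DNA as dimers with one another. C/EBPα, encoded by Cebpa, is needed for progenitors to enter the granulocyte and monocyte path, and it acts there together with PU.1, whose amount helps to set the choice between myeloid and other fates. Klf4 lies downstream of PU.1 in monocyte development and is also made by endothelial cells and by cells responding to acute stimuli.

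Spi1 was the one gene of the group whose 3 GFP-positive arrays all lay below the 3 GFP-negative arrays, by a small amount. One of 3 Cebpg probe sets separated the groups in the same direction with a larger difference, while in the others the groups overlapped. Cebpa was lower in the male GFP-positive arrays but higher in the female one, and Cebpb and Klf4 varied more between arrays of the same group than between the groups. No member passed the test over all genes.

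In that test (limma, Benjamini-Hochberg adjusted p under 0.05 over 18194 genes), 0 of the 6 measured members were higher and 0 were lower, beside 0% of all genes in each direction. At an unadjusted p under 0.05, 1 of 6 members lay lower and 0 lay higher, beside 3.38% and 3.33% of all genes. All 6 members had a negative log2 difference, GFP-positive minus GFP-negative, while 8869 of all genes had a negative and 9325 a positive one. Values below are log2 intensities, which can be compared between arrays for 1 probe set but not between probe sets.

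The sorted population was checked by its gate. Kit, the receptor used in the sort, spanned 9.69 to 10.51 on GFP-positive arrays and 10.47 to 10.72 on GFP-negative arrays. The T cell gene Cd3e lay between 5.38 and 5.98 and the myeloid integrin gene Itgam between 5.21 and 7.65 over the 6 arrays, while the lineage gene Cd4 lay between 8.23 and 9.92. A guide to background is given by 3 Y-linked genes in the female arrays, which lay between 3.42 and 4.69. Hes1 itself measured 7.36, 7.09 and 7.84 on GFP-positive arrays 1, 2 and 3, against 6.78, 6.79 and 7.10 in GFP-negative ones, so the groups overlapped. One library stood apart: all 11 endothelial and stromal genes listed were highest in GFP-positive replicate 1, where they averaged 10.16, against 6.94 and 6.31 in the other GFP-positive arrays and 6.23 to 6.25 in the GFP-negative ones. These are bulk samples, in which fewer cells of a type and less RNA per cell cannot be told apart.

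Promoter sequence of 250 bases before the start was available from RefSeq (GRCm38.p6) for 4 of the 7 genes. The windows of the 3 members with the widest spread between arrays of the same group are shown, for the comparison with immediate early genes made further on. Capitals mark TGACG on either strand, part of the cyclic AMP response element, a motif found in many immediate early genes. The strings run 5′ to 3′ along the gene's strand.
Cebpb, chr2:167688665-167688914, plus strand: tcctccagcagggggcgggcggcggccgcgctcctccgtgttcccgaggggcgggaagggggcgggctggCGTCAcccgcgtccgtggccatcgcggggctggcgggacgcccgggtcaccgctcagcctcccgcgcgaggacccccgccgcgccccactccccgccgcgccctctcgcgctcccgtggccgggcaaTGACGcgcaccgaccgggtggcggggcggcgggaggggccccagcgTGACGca
Klf4, chr4:55532476-55532725, minus strand: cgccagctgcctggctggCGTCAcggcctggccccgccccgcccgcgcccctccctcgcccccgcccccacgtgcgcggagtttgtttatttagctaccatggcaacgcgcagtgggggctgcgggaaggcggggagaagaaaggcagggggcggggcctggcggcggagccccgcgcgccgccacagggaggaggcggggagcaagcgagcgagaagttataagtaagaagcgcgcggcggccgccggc
Cebpa, chr7:35119043-35119292, plus strand: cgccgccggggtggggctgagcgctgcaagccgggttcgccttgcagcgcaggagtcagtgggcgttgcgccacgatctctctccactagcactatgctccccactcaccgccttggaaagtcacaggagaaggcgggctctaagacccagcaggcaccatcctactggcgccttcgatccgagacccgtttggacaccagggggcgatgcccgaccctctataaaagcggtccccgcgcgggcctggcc

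The Cebpb window held 3 matches to TGACG, which began 180, 53 and 7 bases before the start. The Klf4 window held 1 match, 232 bases before the start, and the Cebpa and Cebpg windows held 0. Of all 32851 promoter windows of that length, 17.8% held at least 1 match. Of the 12 immediate early genes with a window, 9 had a match in any of their windows. This count is by gene and is not like for like with the share of windows. The C/EBP motif TTGCNNAA and the PU.1 motif GAGGAA, searched on both strands, had 0 matches in all 4 windows, against 9.56% and 23.3% of all windows with a match. The KLF motif CCACCC matched once each in the Cebpa and Cebpb windows and not in the Cebpg and Klf4 windows, against 28.1% of all windows with a match. A match describes letters in the window and does not show binding.

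**Figure D1:**
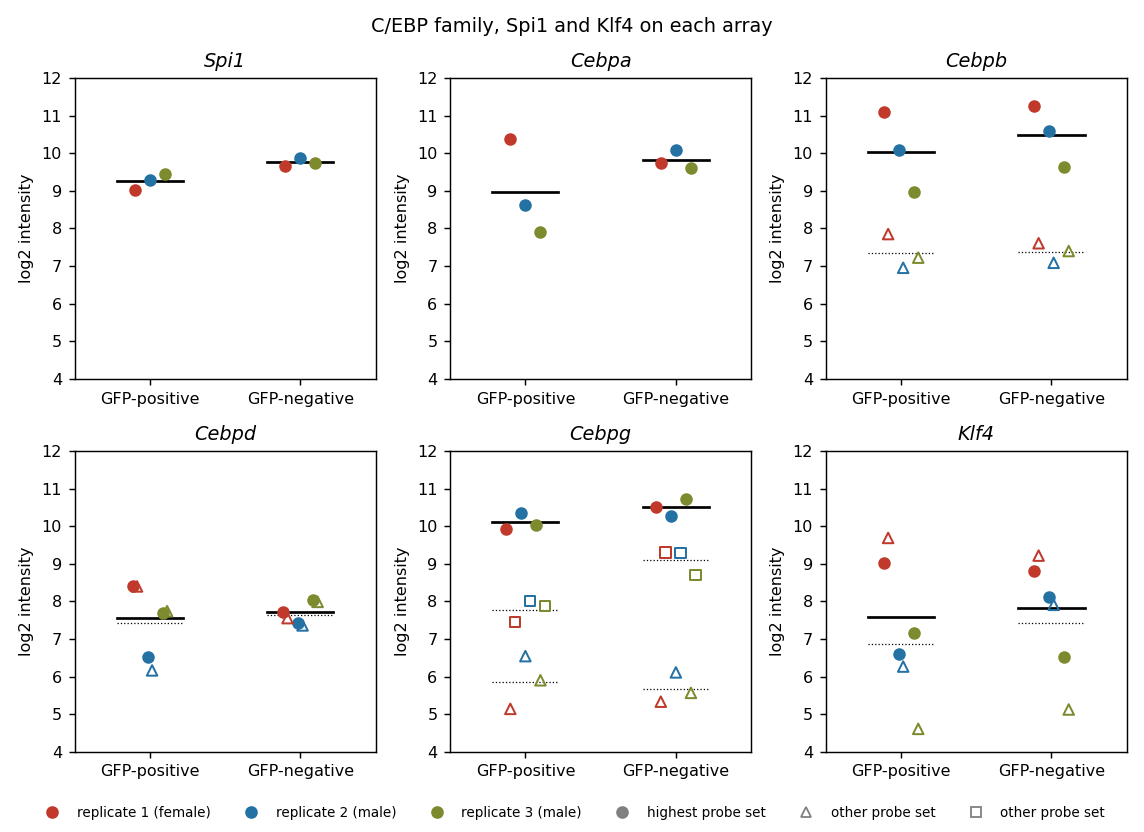
Log2 intensity of each of the 11 probe sets (vertical axis) on the 3 GFP-positive (left) and 3 GFP-negative (right) arrays, 1 panel per gene. Colours give the replicate number, filled circles the probe set with the highest mean and open symbols the others, solid bars the group means and dotted bars those of the other probe sets. The Spi1 arrays separate, from 9.02 to 9.46 against 9.66 to 9.88, and the Klf4 and Cebpb arrays spread widely within both groups.

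PU.1 was measured by 1 probe set. Spi1 measured 9.02, 9.30 and 9.46 on GFP-positive arrays 1, 2 and 3, against 9.66, 9.88 and 9.75 in the GFP-negative ones. The highest GFP-positive array thus lay below the lowest GFP-negative array, which held for 1 of 6 members and for 5.51% of all genes. The opposite separation held for 0 of 6 members and for 5.89% of all genes. The mean was 9.26 ± 0.22 on the GFP-positive arrays, against 9.76 ± 0.11 on the GFP-negative arrays (SD, n = 3 each). The log2 difference was -0.50 ± 0.17 (SE), or 0.705 times the GFP-negative level. Its 95% interval ran from -0.93 to -0.08, and it did not pass over all genes (limma unadjusted p = 0.0275, adjusted p = 0.665). An exact two-sided permutation of the arrays gave p = 0.1, the smallest that 3 arrays against 3 can give. The difference was -0.64 in the female pair, where each group has 1 array, and -0.44 in the male arrays. Without GFP-positive replicate 1, the array with high endothelial genes, it was -0.38.

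C/EBPα is the family member that opens the granulocyte and monocyte path. Cebpa, by its 1 probe set, measured 10.38, 8.63 and 7.91 on GFP-positive arrays 1, 2 and 3, against 9.75, 10.08 and 9.61 in the GFP-negative ones. The female GFP-positive array was the highest of the 6, and both male GFP-positive arrays lay below every GFP-negative array. The GFP-positive arrays were also more spread, at 8.98 ± 1.27 against 9.81 ± 0.24 (SD, n = 3 each). The log2 difference was -0.84 ± 0.62 (SE; 95% interval -2.37 to 0.69; limma adjusted p = 0.952; two-sided exact permutation p = 0.4). It was 0.63 in the female pair and -1.57 in the male arrays. Without GFP-positive replicate 1 it was -1.54, and without GFP-positive replicate 3 it was -0.30. The part of the endothelial signal of replicate 1 in this value was not tested.

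C/EBPβ supports granulocyte production during infection and is induced quickly by cytokines. Cebpb, by the probe set with the higher mean, measured 11.08, 10.08 and 8.96 on GFP-positive arrays 1, 2 and 3, against 11.27, 10.59 and 9.64 in the GFP-negative ones. Both replicate 1 arrays were high and both replicate 3 arrays low, so the groups overlapped over most of their range. The log2 difference was -0.46 ± 0.64 (SE; 95% interval -2.03 to 1.12; limma adjusted p = 0.974; two-sided exact permutation p = 0.6), with -0.18 in the female pair and -0.59 in the male arrays. Without GFP-positive replicate 3, with the low GFP-negative replicate 3 kept, it was 0.08. Between same-numbered arrays the difference was -0.18, -0.51 and -0.67 for numbers 1, 2 and 3, a pairing that the design does not state. The other Cebpb probe set had a difference of -0.02 ± 0.29 (SE) between the groups.

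C/EBPδ is a member induced by stress and cytokines. Cebpd, by the probe set with the higher mean, measured 8.41, 6.53 and 7.70 on GFP-positive arrays 1, 2 and 3, against 7.71, 7.42 and 8.03 in the GFP-negative ones. The highest and the lowest of the 6 arrays were both GFP-positive. Its log2 difference was -0.17 ± 0.49 (SE; 95% interval -1.36 to 1.02; limma adjusted p = 0.989; two-sided exact permutation p = 0.8), with 0.71 in the female pair and -0.61 in the male arrays. Without GFP-positive replicate 2 it was 0.34. The other probe set gave -0.20 ± 0.58 (SE).

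C/EBPγ is a short family member without a strong activation domain, which pairs with the others and can dampen or redirect them. Cebpg had 3 probe sets, and they disagreed. The one with the highest mean measured 9.92, 10.34 and 10.03 on GFP-positive arrays 1, 2 and 3, against 10.51, 10.27 and 10.73 in the GFP-negative ones. The groups overlapped only through replicate 2 of each, and the log2 difference was -0.40 ± 0.20 (SE; 95% interval -0.88 to 0.08; limma adjusted p = 0.821; two-sided exact permutation p = 0.2).

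The second probe set of Cebpg measured 7.45, 8.02 and 7.87 on GFP-positive arrays 1, 2 and 3, against 9.30, 9.29 and 8.70 in the GFP-negative ones. All GFP-positive arrays lay below all GFP-negative arrays, by a log2 difference of -1.31 ± 0.25 (SE). With every probe set tested by itself its limma unadjusted p was 0.00217 and its adjusted p 0.45, and an exact two-sided permutation gave p = 0.1. Of all probe sets tested by themselves, 6.58% had a limma unadjusted p under 0.05 in either direction. The share of all probe sets that separate the groups was not counted. The difference of this Cebpg probe set was -1.85 in the female pair and -1.05 in the male arrays. The third probe set lay between 5.14 and 6.54 on GFP-positive arrays, against 5.33 to 6.11 on GFP-negative arrays, and gave 0.19 ± 0.41 (SE). The annotation lists the same source sequence for all 3, so which part of the transcript each reads cannot be given here.

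Klf4 had 2 probe sets. The one with the higher mean measured 9.01, 6.60 and 7.16 on GFP-positive arrays 1, 2 and 3, against 8.82, 8.13 and 6.52 in the GFP-negative ones. The other measured 9.69, 6.27 and 4.61 on the GFP-positive arrays, against 9.22, 7.91 and 5.13 in the GFP-negative ones. Both probe sets were highest on the 2 female arrays, and the lowest value of the other one, 4.61, lay within the guide to background. The log2 differences were -0.23 ± 0.83 (SE; 95% interval -2.25 to 1.79; limma adjusted p = 0.992; two-sided exact permutation p = 1) and -0.56 ± 1.59 (SE). For the first of these the difference was 0.19 in the female pair and -0.44 in the male arrays. It turned to 0.26 without GFP-positive replicate 2 and to 0.27 without GFP-negative replicate 1.

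**Figure D2:**
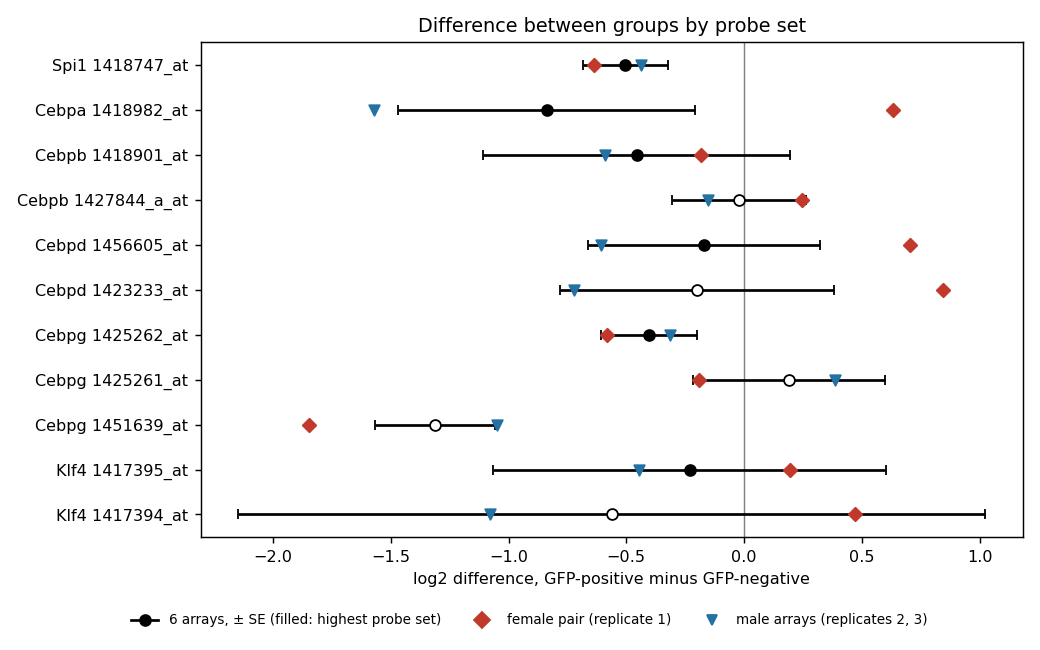
Log2 difference, GFP-positive minus GFP-negative (horizontal axis), for each of the 11 probe sets. Circles with bars give the difference over all 6 arrays ± SE from the limma fit over all probe sets, diamonds the female pair and triangles the male arrays. Cebpa lies at 0.63 in the female pair and -1.57 in the male arrays, and the 3 Cebpg probe sets lie at -1.31, -0.40 and 0.19.

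Members differed in how far arrays of the same group lay apart. The pooled within-group SD was 1.22 for Klf4, 0.95 for Cebpb, 0.92 for Cebpa and 0.70 for Cebpd, against 0.22 for Cebpg and 0.17 for Spi1. Klf4 exceeded 96.9% of all genes in this spread, Cebpb 92.5%, Cebpa 91.7% and Cebpd 83.6%. Cebpg exceeded 33.7% and Spi1 22.1%.

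The arrays on which Cebpb and Klf4 were high also carried high immediate early genes, which cells switch on within minutes of a stimulus. The 15 immediate early genes averaged 10.29, 9.06 and 8.28 on GFP-positive arrays 1, 2 and 3, against 10.63, 9.40 and 8.47 in the GFP-negative ones. In both groups Cebpb and the lower-mean Klf4 probe set had the same order of arrays as this mean, and the higher-mean Klf4 probe set had it in the GFP-negative group. Fos, a subunit of the AP-1 factor, measured 13.07, 12.20 and 10.42 on the GFP-positive arrays, against 13.38, 12.49 and 10.49 on the GFP-negative arrays. Between the groups, 3 of the 15 genes had a positive and 12 a negative difference. Of the 15, 0 passed over all genes, beside 0% of all genes in each direction. The unadjusted p was under 0.05 for 0 higher and 0 lower genes, beside 3.33% and 3.38% of all genes. The part of the immediate early difference between arrays in the values of Cebpb and Klf4 was not tested.

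Markers of mature cells were set beside the members too. The 10 neutrophil genes listed averaged 7.52, 5.99 and 6.29 on GFP-positive arrays 1, 2 and 3, against 7.47, 6.00 and 6.41 in GFP-negative ones, so both female arrays were high, as they were for Klf4 and Cebpb. The alarmin gene S100a9 was at 12.28, 8.74 and 9.11 on GFP-positive arrays, against 11.02, 6.47 and 7.57 on GFP-negative arrays. It was picked after its values were seen and had the largest group difference of the 10 (1.69 ± 1.45 SE). Of the 10, 6 had a positive and 4 a negative difference, with a median of 0.07. The 10 measured monocyte and macrophage genes averaged 8.35, 8.55 and 7.81 on GFP-positive arrays, against 7.28, 7.37 and 6.68 on GFP-negative arrays, opposite in direction to Spi1, with an unadjusted p under 0.05 for 5 higher genes and 1 lower gene, Csf1r (3.33% and 3.38% of all genes). The part of these cells in the members' values was not tested. Klf4, by its higher-mean probe set, was at 8.82 on GFP-negative array 1, where the endothelial genes averaged 6.25, and at 9.01 on GFP-positive array 1, where they averaged 10.16. The part of endothelial cells in these Klf4 values was not tested either.

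**Figure D3:**
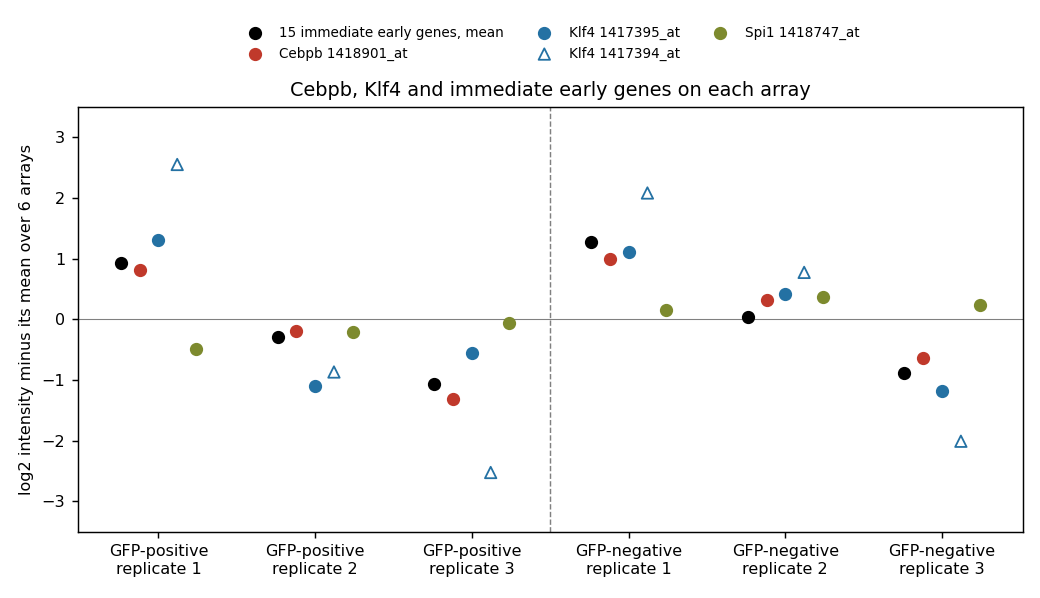
Log2 intensity minus its own mean over the 6 arrays (vertical axis) for Cebpb, both Klf4 probe sets, Spi1 and the mean of 15 immediate early genes, with GFP-positive arrays on the left and GFP-negative arrays on the right of the dashed line. Cebpb, Klf4 and the immediate early mean are high on both replicate 1 arrays, while the Spi1 groups do not overlap.

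The genes with the most similar pattern were found among the 9096 other genes at or above the median mean level, by Pearson's r of log2 intensity over the 6 arrays. The 2 most like Spi1 were Paqr8 (r = 0.996) and Gprc5b (r = 0.989). For Klf4 they were Cdc14a (r = 0.997) and Baz1b (r = 0.989), and for Cebpb Mxd1 and Ggt5 (both r = 0.990). For Cebpa they were Phkb (r = 0.991) and Set (r = 0.990), for Cebpg Coq10a (r = 0.988) and Ripor2 (r = 0.982), and for Cebpd Abcd4 (r = 0.977) and Ube3c (r = 0.975). With 6 arrays and 9096 genes compared, values this high are a description of these arrays only. Among the members themselves, r was 0.820 between Cebpb and Klf4 and 0.804 between Cebpa and Cebpb, and it was 0.664 between Spi1 and Cebpg.

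Partners and antagonists of PU.1 were split evenly in direction. Of 20 measured genes, 1 of them the member Cebpa, 10 had a positive and 10 a negative difference, with a median of -0.001 against 0.01 over all genes. None passed over all genes (0 of 20), and the unadjusted p was under 0.05 for 2 higher and 0 lower genes (3.33% and 3.38% of all genes). These were Gata1, the erythroid factor that binds and opposes PU.1, and Id2, which sequesters E proteins. Gata1 measured 7.87, 8.60 and 8.24 on GFP-positive arrays 1, 2 and 3, against 6.85, 5.80 and 7.26 in GFP-negative ones. Its groups did not overlap, and the log2 difference was 1.60 ± 0.42 (SE; limma adjusted p = 0.52). Id2 was at 8.06, 8.22 and 8.59 against 5.84, 6.79 and 5.72 in the GFP-negative arrays, a log2 difference of 2.17 ± 0.33 (SE; limma adjusted p = 0.254), while its 3 probe sets ranged from -0.22 to 2.17. Gfi1b, a transcriptional repressor that acts within the erythroid and megakaryocyte lineages, had 0.85 ± 0.40 (SE), with overlapping groups.

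Partners and regulators of C/EBP proteins held few differences. Of 14 measured genes 2 had a positive and 12 a negative difference, with a median of -0.16, and 0 passed over all genes or had an unadjusted p under 0.05. The PAR leucine zipper factors Tef and Dbp had the smallest p, at -0.47 ± 0.21 and -0.62 ± 0.28 (log2 difference ± SE). Tef was at -0.31 without GFP-negative replicate 1. The 3 Tef probe sets ranged from -0.47 to 0.02 and the 2 Dbp probe sets from -0.62 to -0.26. Trib1, an adaptor that directs C/EBPα to degradation, measured 7.26, 6.28 and 6.52 on GFP-positive arrays 1, 2 and 3, against 9.62, 6.47 and 6.89 in GFP-negative ones. Its difference of -0.97 ± 0.85 (SE) rested on GFP-negative replicate 1, and without that array it was 0.01.

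Target genes of C/EBP factors and PU.1 in granulocytes and monocytes went both ways. Of 24 measured genes 12 had a positive and 12 a negative difference (median -0.07), 0 passed over all genes, and the unadjusted p was under 0.05 for 2 higher and 2 lower genes of the 24, beside 3.33% and 3.38% of all genes. The higher ones were Elane, neutrophil elastase of the primary granules, and Ms4a3, a membrane protein of granulocyte and monocyte progenitors. Elane measured 11.81, 10.55 and 9.70 on GFP-positive arrays 1, 2 and 3, against 8.37, 5.20 and 5.78 in GFP-negative ones (log2 difference 4.23 ± 0.95 SE; limma adjusted p = 0.45). Ms4a3 was at 10.33, 9.95 and 9.44 against 8.38, 6.68 and 6.81 (2.61 ± 0.51 SE; limma adjusted p = 0.392).

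The lower targets were Csf1r, the receptor for macrophage colony-stimulating factor and a classical PU.1 target, and Ncf1, a subunit of the phagocyte oxidase. Csf1r measured 8.36, 8.41 and 7.88 on GFP-positive arrays 1, 2 and 3, against 9.62, 11.12 and 10.52 in GFP-negative ones (log2 difference -2.20 ± 0.40 SE; limma adjusted p = 0.339), and its 3 probe sets ranged from -2.20 to -0.22. Ncf1, by the highest-mean of its 3 probe sets, lay between 8.79 and 10.07 on GFP-positive arrays, against 10.11 to 10.76 on GFP-negative arrays (-1.22 ± 0.38 SE; limma adjusted p = 0.611). Ncf1 is named here as the fourth of 4 such genes after its values were seen, and its other probe sets are not given. The abundant granule enzyme gene Mpo had 0.08 ± 0.23 (SE). Without GFP-positive replicate 1 the median of the list was -0.47.

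**Figure D4:**
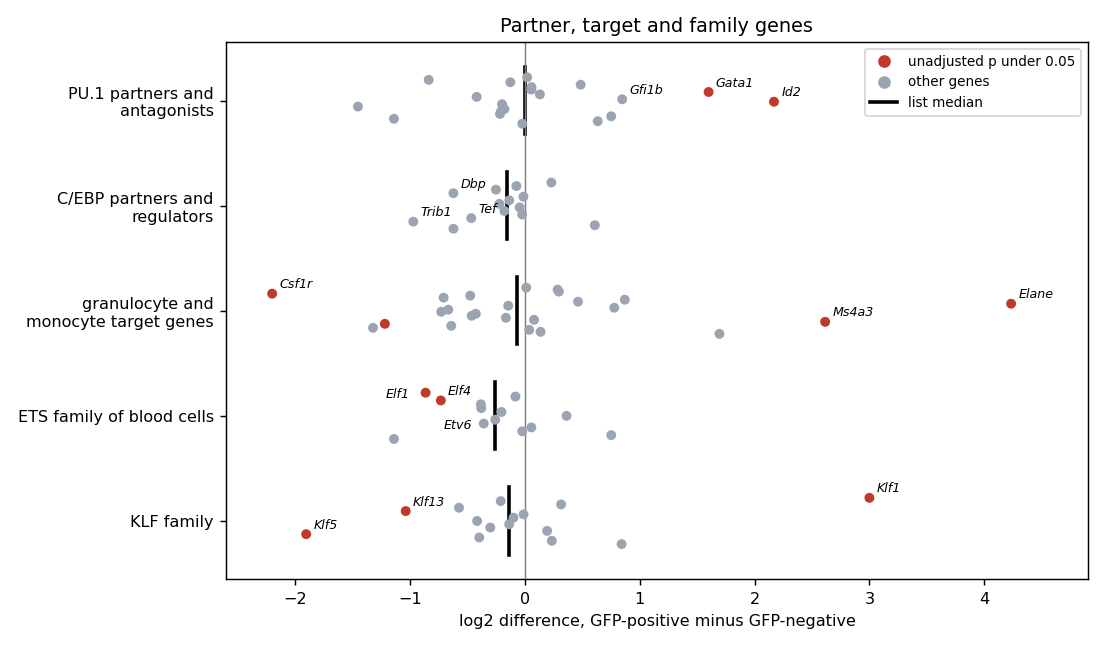
Log2 difference, GFP-positive minus GFP-negative (horizontal axis), of each measured gene in the 5 lists (rows). Black bars are list medians, red points have an unadjusted limma p under 0.05 and grey points do not, and 3 genes per list are named. The medians lie between -0.26 and -0.001, with Elane at 4.23 and Csf1r at -2.20.

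Among the ETS relatives of PU.1 in blood cells, 10 of 13 genes had a negative difference (median -0.26). Of the 13, 0 passed over all genes, and the unadjusted p was under 0.05 for 0 higher and 2 lower genes, beside 3.33% and 3.38% of all genes. These were Elf1, a regulator of lymphoid and erythroid genes, and Elf4, which acts on the cycling of T cells and stem cells. Elf4 measured 10.63, 10.39 and 10.79 on GFP-positive arrays 1, 2 and 3, against 11.08, 11.56 and 11.37 in GFP-negative ones (-0.73 ± 0.20 SE; limma adjusted p = 0.528). Elf1 was at 9.61, 9.83 and 10.11 against 10.57, 10.47 and 11.10 (-0.86 ± 0.24 SE; limma adjusted p = 0.532). The repressor gene Etv6 had -0.36 ± 0.15 (SE), also with groups that did not overlap.

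Of the 15 measured KLF relatives of Klf4, 5 had a positive and 10 a negative difference (median -0.14). Of the 15, 0 passed over all genes, and the unadjusted p was under 0.05 for 1 higher and 2 lower genes, beside 3.33% and 3.38% of all genes. Klf1, the erythroid family member, measured 9.11, 9.55 and 9.92 on GFP-positive arrays 1, 2 and 3, against 5.55, 7.13 and 6.90 in GFP-negative ones (3.00 ± 0.46 SE; limma adjusted p = 0.254). Klf13 was at 9.36, 9.06 and 8.39 against 10.23, 9.85 and 9.83 (-1.04 ± 0.29 SE; limma adjusted p = 0.534), with 3 probe sets from -1.04 to -0.002. Klf5 had -1.90 ± 0.74 (SE), and its 3 probe sets gave -1.90 to 0.18. The Klf5 difference was -1.15 without GFP-negative replicate 1. Of the 3 probe sets each of Klf13 and Klf5, only the one with the highest mean had groups that did not overlap.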

How the data were processed

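RNA of the 6 sorted samples was amplified from 5 ng per the labels' protocols and hybridised to Affymetrix arrays. The authors deposited 1 RMA intensity per probe set on a linear scale (45101 probe sets), RMA being named in the submitters' processing notes without version or settings. RMA includes quantile normalisation, which removes shifts shared by most genes, and it shrinks differences near background. Log2 was taken with no pseudocount, array medians lying between 74 and 78.5. The platform annotation gave 34958 probe sets 1 symbol, 932 several and 9211 none. The probe set of highest mean stood for a gene, leaving 18194 genes with no filter.

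Groups were compared with limma 3.58.1 in R 4.3.3 (lmFit, eBayes, no covariates), adjusted over all genes at 0.05, and with a two-sided exact permutation test for single members. The fit was tested on simulated data. The number of arrays limits the precision. Figures used matplotlib 3.10.9.

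The members, lists, motifs and tests were chosen with earlier results of these data known. By rule, the named genes are the members, the 3 genes of smallest p in each of 5 lists and the 2 most similar genes per member. Kit, Cd3e, Itgam, Cd4 and Hes1 are named as checks of the sort. Fos, S100a9, Mpo, Ncf1, Irf8, Csf3r, Ctsg and Cd34 fall outside the rule and were chosen after their values were seen. Alternatives were probe set averaging, single probe sets, a filter at the 40th percentile, renewed normalisation, other variance priors, array weights, the replicate number as a block, sex, male arrays only and omission of each array.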

Additional observations from a re-analysis of the deposited data

Results flagged for a closer look

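The Cebpa difference between GFP-positive and GFP-negative cells was of opposite sign in the male arrays (-1.57) and in the female pair (0.63), and both male GFP-positive arrays lay below both male GFP-negative arrays. The male minus female contrast of the difference was -2.20 ± 0.62 (SE) in a limma fit with a sex-by-group term, with an unadjusted p of 0.0241 and an adjusted p of 0.59 over all genes. It did not pass. Each group has 1 female array, and GFP-positive replicate 1 is also the array with high endothelial genes, so sex and array cannot be told apart. With 3 arrays a group, single arrays were not tested for standing apart.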

How the results depend on the processing

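No member passed the threshold in any alternative, and each kept its negative sign except for the positive values given next. Cebpg was at 0.19 by its probe set with the lowest mean. With 1 array left out, differences ranged from -1.54 to -0.30 for Cebpa, -0.98 to 0.084 for Cebpb, -0.60 to 0.34 for Cebpd, -0.52 to -0.29 for Cebpg, -0.94 to 0.27 for Klf4 and -0.60 to -0.38 for Spi1, and positive values came without GFP-positive replicate 3 (Cebpb, 0.084), without GFP-positive replicate 2 (Cebpd, 0.34; Klf4, 0.26) and without GFP-negative replicate 1 (Klf4, 0.27; Trib1, 0.0087, whose range was -1.57 to 0.0087). Genes past the threshold numbered 0, but 1 with the filter at the 40th percentile and 0 to 5 with 1 array left out, 5 of them without GFP-positive replicate 3. At an unadjusted p under 0.05 there were 1221 genes (6.71%), against 2299 of the single probe sets (6.58%). The median of the PU.1 partner list was -0.001, ranged from -0.086 to 0.078 with 1 array left out and was -0.10 over single probe sets. That of the target genes ranged from -0.47 to 0.19 with 1 array left out. Those of the C/EBP partner and KLF lists ranged from -0.44 to 0.02 and from -0.25 to 0.01.

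Same-numbered arrays had deviations from their group means that correlated at 0.12, 0.05 and 0.09 for numbers 1, 2 and 3 (0.16 for number 1 among genes above the 40th percentile). Each array correlated best with its own number, which is a hint from the data and not the design. With the replicate block 0 genes passed and 1390 had an unadjusted p under 0.05. Cebpb and Spi1 then had limma adjusted p-values of 0.713 and 0.64. Of the lower-mean Klf4 probe set, 1 array (4.61) lay within the guide to background.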

Other observations

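Irf8, the interferon regulatory factor that binds DNA together with PU.1 in monocyte and dendritic cell progenitors, was looked at after its values were seen. By the higher-mean of its 2 probe sets, it measured 10.01, 6.68 and 8.01 on GFP-positive arrays 1, 2 and 3, against 10.39, 9.05 and 9.61 in GFP-negative ones. Its log2 difference was -1.45 ± 0.86 (SE; limma adjusted p = 0.895), and the groups overlapped through replicate 1. Csf3r, the receptor for granulocyte colony-stimulating factor, was at 8.62, 9.23 and 9.17 against 9.32, 9.60 and 10.23 (-0.71 ± 0.30 SE; limma adjusted p = 0.759). All 3 GFP-positive arrays lay below the GFP-negative ones for Csf3r, which held for 3 of the 24 measured target genes and for 5.51% of all genes. The opposite separation held for 3 of the 24 and for 5.89% of all genes.

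Ctsg, a serine protease gene of primary granules, measured 12.51, 11.04 and 11.08 on GFP-positive arrays 1, 2 and 3, against 10.66, 10.63 and 10.74 in GFP-negative ones (0.87 ± 0.42 SE; limma adjusted p = 0.816). Cd34, a surface protein of early progenitors, was at 11.86, 11.48 and 11.80 against 12.30, 12.43 and 12.28 (-0.63 ± 0.17 SE; limma adjusted p = 0.528). The Kit probe set, by contrast, overlapped between the groups.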
